A study of Mus musculus with 9 samples.

Results

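Mitosis genes encode the proteins that carry a cell into and through division, and 36 of them were followed here in hindlimb skeletal muscle of neonatal mice at postnatal days 2, 7 and 14 (P2, P7 and P14). The members are a list of mouse gene symbols, looked up in the deposited array table with 1 probe set for each gene, the one with the highest mean over the 9 arrays. A probe set carrying a single symbol was found for 35 of the 36, out of 22180 genes measured in this way; Ccnb1 was not analysed here. Each age had 3 arrays, which the sources call biological replicates. All mice are of a strain labelled mixed, with no genotype or treatment named, and no label tells if an array stands for 1 animal or for pooled animals. Muscle tissue was used, so every value may average fibres, muscle stem cells, vessels, connective tissue and blood cells, and in such bulk samples fewer cells of a type and less RNA per cell cannot be told apart. Muscle fibre markers were bright at all ages as a group, with a mean over 8 genes of 9.98 to 10.36 on the 9 arrays. The creatine kinase Ckm had mean log2 values of 10.22 ± 0.40 for P2, 10.72 ± 0.10 for P7 and 11.21 ± 0.05 for P14 (SD, n = 3 each). Single markers moved in both directions: Myh8, a myosin heavy chain of the same list, had a log2 change of -5.32 at P14 against P2.

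A cell enters mitosis when cyclin-dependent kinase 1, bound to cyclin A or B, becomes active. Aurora and Polo kinases then build the spindle, kinetochores attach chromosomes to it, and a checkpoint holds back the anaphase-promoting complex until every chromosome is attached. Many of these transcripts are made only from late S phase to mitosis, so that in a tissue they come mostly from dividing cells. Nuclei inside muscle fibres do not divide, and in growing muscle the dividing cells are myoblasts, satellite cells and the cells of connective tissue, vessels and blood.

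The arrays had near-equal medians (3.29 to 3.36 over all probe sets). Pearson's r across genes, which are not independent, was 0.953 or more between arrays of the same age, and no pair held identical values. P2 replicate 2 read lower than the other P2 arrays for most mitosis genes, and results with and without it are given below. As a gauge of dim signal, 95% of 1428 smell and taste receptor genes averaged at or below 3.43 at their brightest age; this is called the receptor level below. Of the 35 mitosis genes 35 averaged above it at P2, 31 at P7 and 26 at P14. Folds of single genes are given only where both means lie above that level, since a value under it may be background.

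Mitosis transcripts were lower at P14 than at P2. Of the 35 genes 31 fell between these ages (limma, Benjamini-Hochberg adjusted p under 0.05 over all genes, the threshold used throughout), 0 rose and 4 did not pass the test. Over all 22180 genes 4.4% fell and 6.63% rose. The median log2 change of the 35 was -1.11 (quartiles -1.44 and -0.87), against 0.01 over all genes; over the 26 genes above the receptor level at every age it was -1.06. Every P14 array lay below every P2 array in 34 of the 35 genes, with Foxm1 the exception; 12.6% of all genes showed that pattern. Leaving out any 1 of the 9 arrays kept 25 of the 31 calls; Cdc20, Cenpa, Cenpf, Kif2c, Kif4 and Plk1 lost theirs at least once.

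Levels were lower after each interval. From P2 to P7 the median log2 change was -0.50 and from P7 to P14 it was -0.59, against -0.01 and 0.02 over all genes, and all 35 genes had a negative value in both intervals (50.8% and 47.7% of all genes). Single genes seldom passed the test within an interval. At P7 against P2 only Cks2 fell (1 of 35; 0.144% of all genes), with 22 of 35 lower at an unadjusted p under 0.05 (6.61% of all genes). At P14 against P7, 6 genes fell, namely Ndc80, Mki67, Top2a, Cenpe, Kif23 and Bub1b (0.703% of all genes), with 26 lower at an unadjusted p under 0.05 (5.07% of all genes). The 3 arrays of the later age all lay below the 3 of the earlier age for 16 genes in the first interval (7.9% of all genes) and for 31 in the second (9.13%). The 2 comparisons share the P7 arrays, so their values are not independent of each other.

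**Figure D1:**
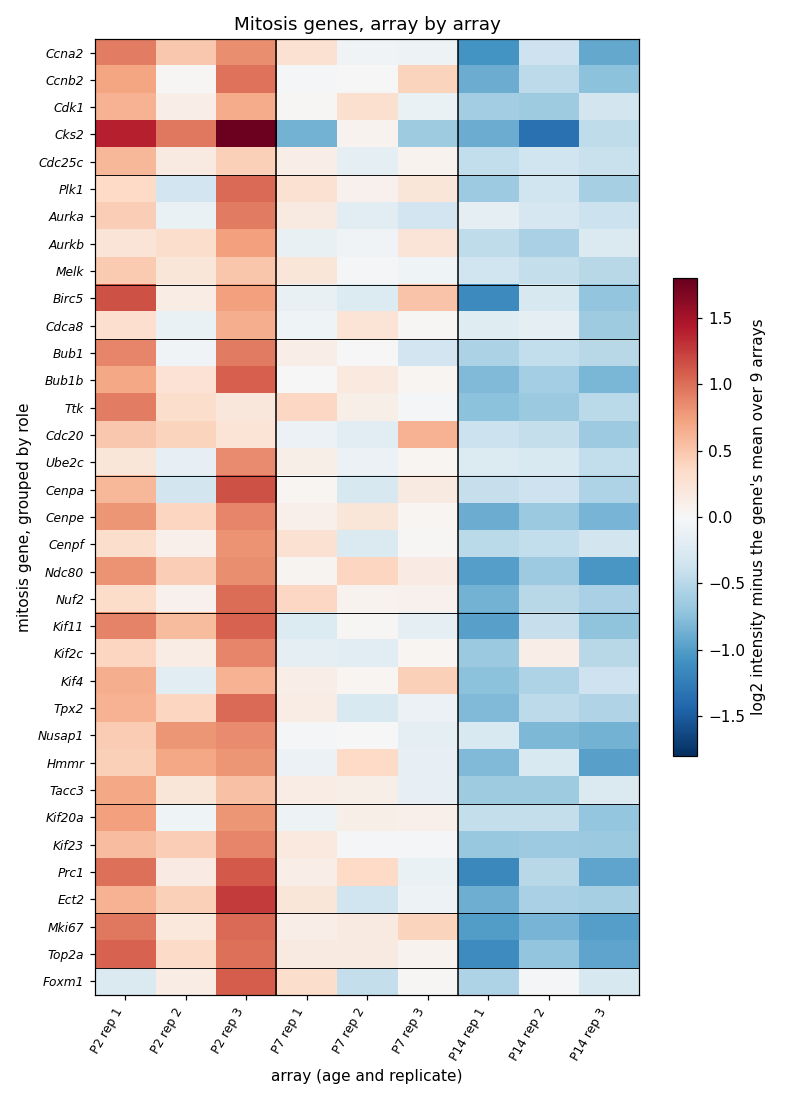
Log2 intensity of each of the 35 mitosis genes (rows, grouped by role, black lines between roles) on each of the 9 arrays (columns, P2 to P14), less that gene's mean over the 9 arrays. The P14 columns are mostly blue (below the gene's mean) and the P2 columns mostly red (above it), with P2 replicate 2 paler than the other P2 arrays.

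**Figure D2:**
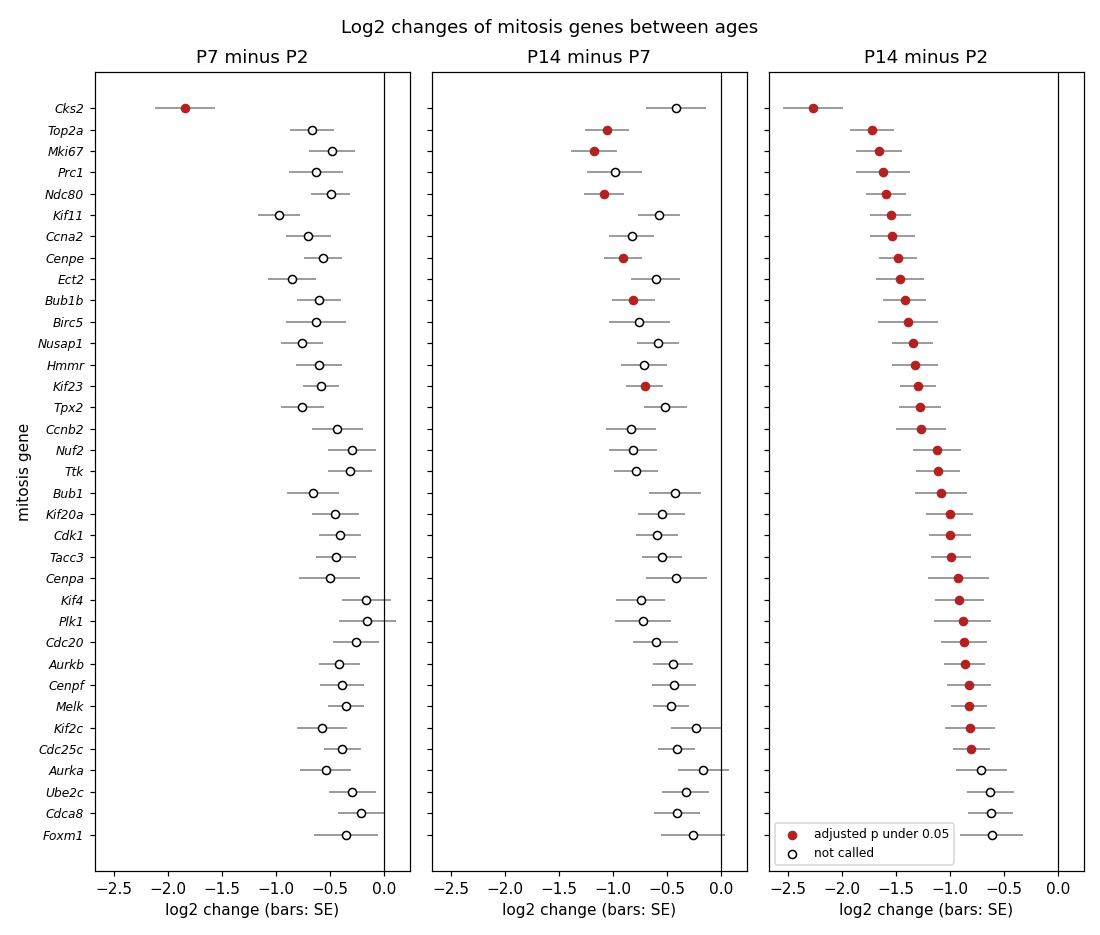
Log2 change of each mitosis gene at P7 minus P2, P14 minus P7 and P14 minus P2 (points, with SE bars from the limma fit), in the order of the change over the whole span. Red points are genes with an adjusted p under 0.05, which are 1, 6 and 31 of 35, and all points lie below 0.

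In 14 genes all P14 arrays lay below all P7 arrays and all P7 arrays below all P2 arrays (1.27% of all genes). These were Ccna2, Cdc25c, Aurkb, Bub1b, Cenpe, Ndc80, Kif11, Tpx2, Nusap1, Hmmr, Tacc3, Kif23, Ect2 and Top2a. A moderated F-test over the 3 ages called 27 of 35 genes (8.24% of all genes). The share of the whole log2 fall that had been reached by P7 had a median of 45.2% and ran from 18.0% in Plk1 to 81.4% in Cks2 by its brightest probe set, but was 45.1% by the dimmest one of that gene; the next highest was Aurka at 76.7%. The first interval lasted 5 of the 12 days, or 41.7%. The later change minus the earlier one was not called for any of the 35 genes by limma (0.194% of all genes were called), and 1 gene, Cks2, was higher at an unadjusted p under 0.05 (4.6% of all genes). The same held for the mean change per day (0 called, 1 at an unadjusted p under 0.05), for which only 15 of all 22180 genes were called. A difference in pace between the intervals was not resolved for single genes.

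The promoters of many mitosis genes hold a short element called the cell cycle genes homology region, read here as the letters TTTGAA or, in a variant form, as TTCGAA, near CCAAT boxes, which bind the factor NF-Y. RefSeq windows of GRCm38.p6 from 250 bases before to 50 bases after the start site were found for 29 of the 35 genes and searched on both strands. The element in either form was present for 22 of 29 genes (75.9%), against 21.7% of 27025 genes with such windows, and at least 2 CCAAT boxes for 16 of 29 (55.2%), against 13.3%. Both together, the first element with at least 2 CCAAT boxes, were found for 15 of 29 genes (51.7%), against 2.68%. These are matches of letters, with no binding measured. Below, 240 bases (220 before to 20 after the start) are given for 6 genes: Ndc80, with the smallest adjusted p over the whole span, whose stretch holds none of these letters, although the 300-base window has 1 match of the element further downstream, 30 bases from the start, and so counts among the 22; Mki67 and Top2a, called over the second interval as well as the whole span; Kif23, another of that kind with 1 element and 1 CCAAT box in the stretch shown; Cdk1, the mitotic kinase itself; and Cks2, the gene called over the first interval by its brightest probe set, whose stretch holds CCAAT boxes but neither form of the other element. Capitals mark the 2 forms of the element and the CCAAT box on either strand, so that a CCAAT box on the other strand reads ATTGG. The stretches lie at chr17:71526838-71527077 (minus strand), chr7:135716360-135716599 (minus strand), chr11:99024170-99024409 (minus), chr9:61946780-61947019 (minus), chr10:69352893-69353132 (minus) and chr13:51645012-51645251 (plus), and each is written 5′ to 3′ in the sense of its gene.
Ndc80: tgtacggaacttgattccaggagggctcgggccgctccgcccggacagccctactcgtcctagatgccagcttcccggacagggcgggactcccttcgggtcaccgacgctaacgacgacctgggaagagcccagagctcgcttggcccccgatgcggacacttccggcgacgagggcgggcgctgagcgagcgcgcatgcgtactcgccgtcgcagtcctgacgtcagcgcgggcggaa
Mki67: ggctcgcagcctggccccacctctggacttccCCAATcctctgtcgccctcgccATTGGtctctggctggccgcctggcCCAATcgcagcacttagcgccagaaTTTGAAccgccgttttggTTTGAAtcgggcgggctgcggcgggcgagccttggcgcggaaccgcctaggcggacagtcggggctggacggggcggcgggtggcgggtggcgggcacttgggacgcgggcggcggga
Top2a: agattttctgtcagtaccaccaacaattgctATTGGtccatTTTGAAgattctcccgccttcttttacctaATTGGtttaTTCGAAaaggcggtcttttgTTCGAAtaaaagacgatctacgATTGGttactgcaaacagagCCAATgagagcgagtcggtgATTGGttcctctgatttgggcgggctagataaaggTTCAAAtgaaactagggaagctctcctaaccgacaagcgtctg
Kif23: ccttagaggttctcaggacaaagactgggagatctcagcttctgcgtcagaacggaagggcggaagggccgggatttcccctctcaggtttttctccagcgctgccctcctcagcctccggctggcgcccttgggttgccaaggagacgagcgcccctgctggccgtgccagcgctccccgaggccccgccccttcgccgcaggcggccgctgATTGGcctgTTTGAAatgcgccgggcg
Cdk1: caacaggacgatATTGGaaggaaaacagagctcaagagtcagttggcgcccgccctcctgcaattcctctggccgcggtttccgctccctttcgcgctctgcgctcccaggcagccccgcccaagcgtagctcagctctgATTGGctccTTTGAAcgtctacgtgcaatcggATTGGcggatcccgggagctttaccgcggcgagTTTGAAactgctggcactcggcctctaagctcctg
Cks2: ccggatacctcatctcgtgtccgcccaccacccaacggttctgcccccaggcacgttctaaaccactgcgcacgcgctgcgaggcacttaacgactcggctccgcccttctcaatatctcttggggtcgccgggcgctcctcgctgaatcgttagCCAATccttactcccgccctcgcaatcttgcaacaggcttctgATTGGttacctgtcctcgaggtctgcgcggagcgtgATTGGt

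Mki67 and Top2a are the genes most used to mark dividing cells: Mki67 encodes the Ki-67 protein that coats mitotic chromosomes, and Top2a the topoisomerase that untangles them. Mki67 had log2 values of 7.26, 6.49 and 7.33 at P2, 6.43, 6.48 and 6.72 at P7, and 5.31, 5.47 and 5.32 at P14. All P14 arrays lay well under the lowest P7 array, whereas P2 replicate 2 lay within the P7 range. Mki67 fell at P14 against P7 with a log2 change of -1.18 ± 0.21, adjusted p = 0.00812, or 2.26-fold, and against P2 with -1.66 ± 0.21, adjusted p = 0.000168, or 3.16-fold; its P7 against P2 value of -0.48 ± 0.21 was not called (adjusted p = 0.358). Top2a had 6.51, 5.79 and 6.45 at P2, 5.62, 5.61 and 5.52 at P7, and 4.32, 4.75 and 4.51 at P14. Its 3 ages did not overlap. Top2a fell at P14 against P7 (-1.06 ± 0.20, adjusted p = 0.0129) and against P2 (-1.73 ± 0.20, adjusted p = 8.59e-05, 3.31-fold), and was not called at P7 against P2 (-0.67 ± 0.20, adjusted p = 0.176). The call of Mki67 over the second interval held without any 1 array (adjusted p up to 0.0484), but that of Top2a failed once P7 replicate 1, P7 replicate 2, P14 replicate 1 or P14 replicate 3 was dropped (up to 0.0810).

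Among the regulators of mitotic entry all 5 measured genes fell between P2 and P14 (4.4% of all genes fell), with a median log2 change of -1.27. Cyclin A2 (Ccna2), which works in S phase and at mitotic entry, had 6.05, 5.61 and 5.96 at P2, 5.41, 5.06 and 5.03 at P7, and 4.05, 4.75 and 4.21 at P14. Ccna2 fell at P14 against P2 (log2 change -1.53 ± 0.21, adjusted p = 0.000282, 2.89-fold). Cyclin B2 (Ccnb2), a partner of Cdk1, had 5.77, 5.09 and 6.03 at P2, 5.04, 5.07 and 5.47 at P7, and 4.17, 4.60 and 4.32 at P14. Its P14 arrays lay apart from all others, and the log2 change against P2 was -1.27 ± 0.23, adjusted p = 0.00278, or 2.41-fold. Cdk1, the kinase that drives mitosis, had 5.11, 4.62 and 5.15 at P2, 4.51, 4.78 and 4.37 at P7, and 3.87, 3.85 and 4.16 at P14. Its log2 change against P2 was -0.9995 ± 0.19, adjusted p = 0.004, or 2.00-fold. Cdc25c, the phosphatase that removes the inhibiting phosphates of Cdk1, had 3.95, 3.52 and 3.78 at P2, 3.47, 3.19 and 3.41 at P7, and 2.91, 2.99 and 2.94 at P14. Cdc25c fell at P14 against P2 (log2 change -0.80 ± 0.17, adjusted p = 0.00724), with its P7 and P14 means under the receptor level.

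Cks2, a small protein that binds Cdk1 and helps it dock to substrates, had a size of change that depended on the probe set read. By the brightest its values were 5.24, 4.80 and 5.61 at P2, 2.99, 3.90 and 3.21 at P7, and 2.94, 2.504 and 3.38 at P14. The P2 arrays stood apart, while P7 and P14 overlapped and both averaged under the receptor level. Cks2 fell at P7 against P2 with a log2 change of -1.85 ± 0.28, adjusted p = 0.0112, and at P14 against P2 with -2.27 ± 0.28, adjusted p = 0.000112; its P14 against P7 value of -0.42 ± 0.28 was not called (adjusted p = 0.549). Cks2 was the one member with more than 1 probe set. Of its 4 probe sets, 2 held the same values on every array, and the dimmest read 3.95, 3.37 and 4.98 at P2, 3.21, 3.67 and 3.93 at P7, and 2.84, 3.14 and 3.03 at P14. By that probe set the P7 against P2 change was -0.49 and not called (adjusted p = 0.543), and by the mean of the 4 it was -1.31 (adjusted p = 0.0507). The early fall of Cks2 therefore depends on which probe set is read. It was also lost without P7 replicate 1 or 3 (adjusted p up to 0.0667). The fall at P14 against P2 was called by either measure (-1.10, adjusted p = 0.0368, and -1.85, adjusted p = 0.000346).

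Of the 4 mitotic kinases 3 fell between P2 and P14 (4.4% of all genes fell). Melk, a kinase of dividing progenitor cells, had 4.39, 4.13 and 4.41 at P2, 4.13, 3.88 and 3.84 at P7, and 3.56, 3.48 and 3.41 at P14. Melk fell at P14 against P2 (log2 change -0.82 ± 0.17, adjusted p = 0.00504). Aurkb, the catalytic subunit of the chromosomal passenger complex that corrects faulty attachments, had 4.42, 4.50 and 4.93 at P2, 4.05, 4.12 and 4.42 at P7, and 3.73, 3.60 and 3.92 at P14. Its 3 ages did not overlap, and it fell at P14 against P2 (log2 change -0.86 ± 0.19, adjusted p = 0.0083). Polo-like kinase Plk1, which matures centrosomes and triggers anaphase, had 5.29, 4.58 and 5.94 at P2, 5.20, 4.998 and 5.13 at P7, and 4.27, 4.57 and 4.32 at P14. Its P2 values spread over more than a log2 unit, and P2 replicate 2 was below all P7 arrays. Plk1 fell at P14 against P2 (-0.88 ± 0.26, adjusted p = 0.0435), but the call was lost without any array other than P2 replicate 2 (adjusted p up to 0.143). Aurka, the kinase of the spindle poles, had 4.45, 3.88 and 4.93 at P2, 4.17, 3.81 and 3.65 at P7, and 3.82, 3.70 and 3.61 at P14 and was not called (-0.71 ± 0.24, adjusted p = 0.0712, 95% confidence interval -1.21 to -0.20).

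Aurkb works together with survivin (Birc5) and borealin (Cdca8). Birc5 had 4.73, 3.72 and 4.32 at P2, 3.45, 3.33 and 4.09 at P7, and 2.44, 3.28 and 2.87 at P14. Its P14 arrays lay below all others and averaged under the receptor level, with a log2 change of -1.39 ± 0.28, adjusted p = 0.00519 against P2. Cdca8 was among the dimmest members, between 2.72 and 4.01 on the 9 arrays, and was not called (P14 against P2 -0.62 ± 0.21, adjusted p = 0.077).

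The spindle checkpoint kinases Bub1 and Ttk and the checkpoint protein Bub1b, which together restrain Cdc20 until chromosomes are attached, all fell between P2 and P14. Bub1b had 4.73, 4.30 and 5.11 at P2, 4.03, 4.21 and 4.07 at P7, and 3.24, 3.43 and 3.21 at P14. The ages did not overlap. It fell at P14 against P2 (-1.42 ± 0.20, adjusted p = 0.000376) and at P14 against P7 (-0.81 ± 0.20, adjusted p = 0.0484), a call lost without any P7 or P14 array (up to 0.179). Ttk had 4.85, 4.25 and 4.13 at P2, 4.31, 4.04 and 3.91 at P7, and 3.19, 3.27 and 3.45 at P14. Its log2 change was -1.11 ± 0.20, adjusted p = 0.00285 at P14 against P2, of which 29.0% had been reached by P7. Bub1 had 4.57, 3.63 and 4.63 at P2, 3.82, 3.69 and 3.35 at P7, and 3.13, 3.25 and 3.20 at P14. Bub1 fell at P14 against P2 (log2 change -1.08 ± 0.24, adjusted p = 0.00912). At P14 the means of Bub1, Bub1b and Ttk were under the receptor level. Cdc20, the activator of the anaphase-promoting complex, had 4.42, 4.33 and 4.17 at P2, 3.83, 3.75 and 4.56 at P7, and 3.54, 3.50 and 3.27 at P14. Its P7 replicate 3 lay above the P2 arrays, and the fall at P14 against P2 (-0.87 ± 0.21, adjusted p = 0.0152) was lost without P2 replicate 1 or P14 replicate 3 (up to 0.0737). Ube2c, the ubiquitin-conjugating enzyme of that complex, was not called (-0.63 ± 0.22, adjusted p = 0.0854, 95% confidence interval -1.10 to -0.16) and read 4.78 to 4.98 on the P14 arrays.

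All 5 centromere and kinetochore genes fell between P2 and P14 (median log2 change -1.12, with 4.4% of all genes falling). Ndc80 and Nuf2 form the arm of the Ndc80 complex that grips microtubules. Ndc80 had 5.46, 5.08 and 5.49 at P2, 4.69, 5.04 and 4.80 at P7, and 3.66, 3.999 and 3.60 at P14. It had the smallest adjusted p of the 35 genes over the whole span (-1.59 ± 0.19, adjusted p = 7.42e-05, 3.01-fold), and it also fell at P14 against P7 (-1.09 ± 0.19, adjusted p = 0.00502, 2.13-fold), a call that held without any 1 array (up to 0.0422). Nuf2 had 4.90, 4.66 and 5.58 at P2, 4.95, 4.64 and 4.66 at P7, and 3.72, 4.08 and 3.99 at P14. Nuf2 fell at P14 against P2 (log2 change -1.12 ± 0.22, adjusted p = 0.00487), with -0.82 ± 0.22 in the second interval (adjusted p = 0.0742). Cenpe, a kinetochore motor that moves chromosomes to the spindle equator, had 5.23, 4.82 and 5.31 at P2, 4.53, 4.65 and 4.48 at P7, and 3.54, 3.78 and 3.60 at P14. The ages did not overlap. Cenpe fell at P14 against P2 (-1.48 ± 0.18, adjusted p = 9.11e-05) and against P7 (-0.91 ± 0.18, adjusted p = 0.0129), the second call failing once P7 replicate 2, P14 replicate 1 or P14 replicate 3 was dropped (up to 0.0760).

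Cenpa, the histone H3 variant of centromeres, and Cenpf, a large kinetochore protein, had the smallest log2 changes of that group. Cenpa had 4.65, 3.73 and 5.20 at P2, 4.09, 3.77 and 4.21 at P7, and 3.63, 3.68 and 3.50 at P14. P2 replicate 2 lay below all P7 arrays and just above the highest P14 array. Cenpa's log2 change of -0.92 ± 0.28 (adjusted p = 0.0498) was lost without any array other than P2 replicate 2 (up to 0.162). Cenpf had 4.50, 4.26 and 4.98 at P2, 4.45, 3.92 and 4.20 at P7, and 3.69, 3.74 and 3.84 at P14. Its log2 change of -0.83 ± 0.20 (adjusted p = 0.0174) was lost without P2 replicate 3 or P14 replicate 1 or 2 (up to 0.0713).

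All 7 spindle motors and microtubule proteins fell between P2 and P14 (median log2 change -1.28, with 4.4% of all genes falling). Kif11, the motor that pushes spindle poles apart, had 5.87, 5.54 and 6.03 at P2, 4.72, 4.99 and 4.81 at P7, and 3.99, 4.55 and 4.25 at P14. Its ages did not overlap and it fell at P14 against P2 (log2 change -1.55 ± 0.19, adjusted p = 0.000135), or 2.93-fold. The P7 against P2 value of Kif11, -0.97 ± 0.19, just missed the threshold (adjusted p = 0.0501). Tpx2, which activates Aurka on the spindle, had 5.36, 5.12 and 5.76 at P2, 4.88, 4.47 and 4.63 at P7, and 3.94, 4.27 and 4.20 at P14. Tpx2 fell at P14 against P2 (log2 change -1.28 ± 0.20, adjusted p = 0.000757). Nusap1, a protein that bundles spindle microtubules, had 4.82, 5.15 and 5.21 at P2, 4.33, 4.36 and 4.20 at P7, and 4.08, 3.55 and 3.51 at P14, and fell at P14 against P2 (log2 change -1.35 ± 0.19, adjusted p = 0.000417). Across the 7 genes the share of the log2 fall reached by P7 was 71.0% in Kif2c, 62.7% in Kif11, 59.5% in Tpx2, 56.7% in Nusap1, 45.8% in Hmmr, 44.9% in Tacc3 and 18.5% in Kif4. At P7 against P2 limma called none of the 7 (0.144% of all genes fell), with 6 lower at an unadjusted p under 0.05 (6.61% of all genes).

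Hmmr, a receptor for hyaluronan that also sits on the spindle, had 3.80, 4.07 and 4.16 at P2, 3.27, 3.72 and 3.22 at P7, and 2.58, 3.09 and 2.39 at P14. Its ages did not overlap, and its means at P7 and P14 were under the receptor level; the log2 change at P14 against P2 was -1.32 ± 0.21, adjusted p = 0.00106. Tacc3, which stabilises spindle fibres, had 5.34, 4.86 and 5.17 at P2, 4.78, 4.75 and 4.50 at P7, and 4.01, 4.0004 and 4.38 at P14. Tacc3 fell at P14 against P2 (log2 change -0.99 ± 0.19, adjusted p = 0.0031). Kif4 and Kif2c lost their calls when single arrays were left out. Kif4, a motor on chromosome arms, had 4.12, 3.26 and 4.08 at P2, 3.58, 3.50 and 3.88 at P7, and 2.72, 2.91 and 3.09 at P14; its P14 against P2 change was -0.91 ± 0.23, adjusted p = 0.0171 (failing, up to 0.0832, once P2 replicate 1 or 3, or P14 replicate 1 or 2, was dropped). Kif2c, which takes microtubules apart at kinetochores, had 4.18, 3.93 and 4.67 at P2, 3.62, 3.60 and 3.83 at P7, and 3.13, 3.91 and 3.30 at P14. Its P14 replicate 2 lay above all P7 arrays, and the change of -0.81 ± 0.23 (adjusted p = 0.0346) failed once P2 replicate 1 or 3, or P14 replicate 1 or 3, was dropped (up to 0.162).

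All 4 genes of cytokinesis, the final parting of the daughter cells, fell between P2 and P14 (median log2 change -1.38, with 4.4% of all genes falling). Prc1, which crosslinks the microtubules of the central spindle, had 6.14, 5.30 and 6.26 at P2, 5.26, 5.51 and 5.02 at P7, and 3.99, 4.65 and 4.19 at P14. Prc1 fell at P14 against P2 (log2 change -1.62 ± 0.25, adjusted p = 0.000833), or 3.08-fold. Kif23, a motor subunit of centralspindlin, had 4.98, 4.86 and 5.29 at P2, 4.60, 4.38 and 4.39 at P7, and 3.74, 3.76 and 3.75 at P14. The 3 P14 arrays were nearly equal. Kif23 fell at P14 against P2 (-1.29 ± 0.17, adjusted p = 0.000191) and against P7 (-0.71 ± 0.17, adjusted p = 0.0402), the second call lost without any P7 or P14 array (up to 0.1503). Ect2, the exchange factor that switches on RhoA for the contractile ring, had 5.45, 5.26 and 6.09 at P2, 5.04, 4.46 and 4.73 at P7, and 3.95, 4.24 and 4.23 at P14. Its ages did not overlap, and it fell at P14 against P2 (log2 change -1.46 ± 0.22, adjusted p = 0.000716). Kif20a, a motor that carries the passenger complex to the central spindle, had 5.11, 4.30 and 5.16 at P2, 4.28, 4.48 and 4.46 at P7, and 3.94, 3.94 and 3.68 at P14. Kif20a fell at P14 against P2 (log2 change -1.004 ± 0.22, adjusted p = 0.00834), or 2.01-fold.

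Foxm1, the transcription factor that switches on many G2 and M phase genes, was the 1 transcription regulator on the list and the only member whose P14 and P2 arrays overlapped. It had 3.59, 3.98 and 4.93 at P2, 4.17, 3.41 and 3.86 at P7, and 3.28, 3.82 and 3.55 at P14. P2 replicate 3 was far above the other P2 arrays. Foxm1 was not called at P14 against P2 (-0.62 ± 0.30, adjusted p = 0.22). Its 95% confidence interval of -1.25 to 0.02 holds both no change and the median change of the 35 genes (-1.11), but not the larger falls among them.

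**Figure D3:**
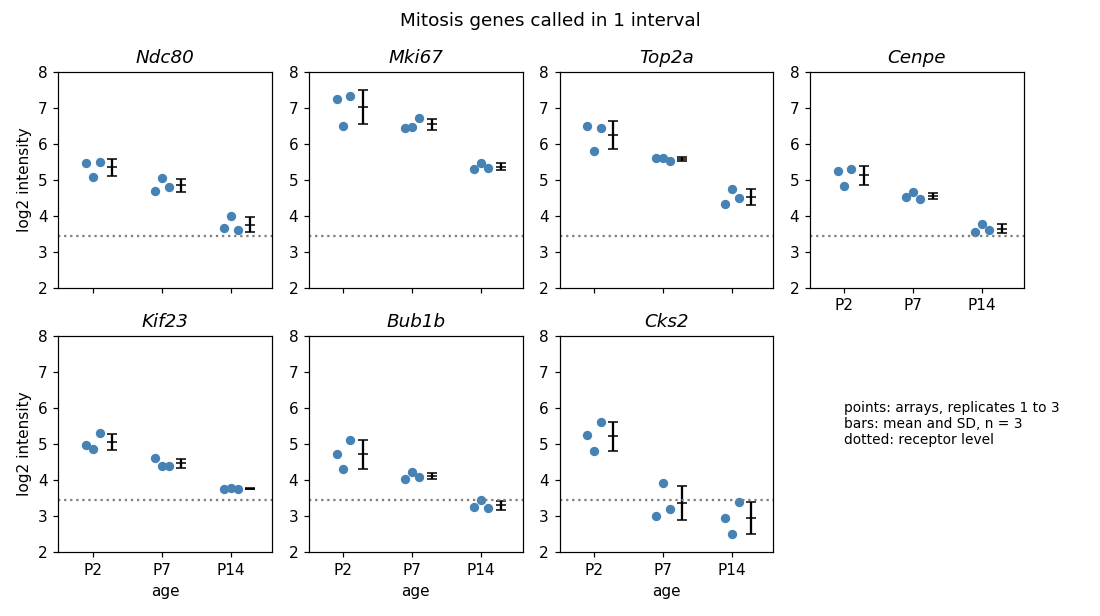
Log2 intensity of the 7 mitosis genes called in 1 of the intervals, at P2, P7 and P14 (points: arrays, replicates 1 to 3 from left to right; bars: mean and SD, n = 3). The dotted line is the receptor level of 3.43; Ndc80, Mki67, Top2a, Cenpe, Kif23 and Bub1b are lowest at P14, and Cks2 is near or under the line at both P7 and P14.

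At P2 the members tended to be high or low on the same arrays. P2 replicate 2 was the lowest of the 3 P2 arrays for 29 of 35 genes (82.9%; 37.9% of all genes) and P2 replicate 3 the highest for 27 (77.1%; 36.8% of all genes). At P7 the array most often highest was replicate 1, for 16 genes (45.7%; 36.5% of all genes), and at P14 it was replicate 2, for 22 (62.9%; 34.3% of all genes). The mean over the 35 genes was 4.98, 4.56 and 5.21 on P2 replicates 1, 2 and 3, 4.41, 4.35 and 4.38 at P7, and 3.66, 3.86 and 3.73 at P14. Every P14 mean lay below every P7 mean and every P7 mean below every P2 mean, and P2 replicate 2 stood nearest to P7. The median SD among replicates was 0.39 for these genes at P2 (0.25 over all genes), 0.19 at P7 (0.20) and 0.17 at P14 (0.16). Without P2 replicate 2 the median P7 against P2 change was -0.70 and 4 genes were called (Bub1, Cks2, Kif11 and Top2a); without P2 replicate 3 it was -0.38 and 1 was called. Calls in either direction over all 22180 genes were 73 with every array, 206 without P2 replicate 2 and 154 without P2 replicate 3. At P14 against P7 12 genes were called without P2 replicate 2, although that array enters the comparison only through the variance that the ages share. Over all genes the calls there went from 538 to 794. At P14 against P2, 34 genes were called without P2 replicate 2, and the median ran from -1.30 without that array to -0.96 without P2 replicate 1. Over all genes 2447 were called with every array and 2611 without P2 replicate 2.

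Other mitosis genes, not on the list of 36, were looked up in 5 further lists with 96 genes measured. Of these 44 fell at P14 against P2, 1 rose and 51 were not called (median log2 change -0.62; 4.4% of all genes fell and 6.63% rose). By role, 14 of 26 further kinetochore and checkpoint genes fell, 13 of 21 spindle genes, 7 of 15 condensin and cohesin genes, 6 of 9 cytokinesis genes and 4 of 25 regulators of entry and exit. The last of these lists holds subunits of the anaphase-promoting complex and of the MuvB complex, and had a median of -0.21. The inner kinetochore gene Cenpl (-1.28 ± 0.20, adjusted p = 0.000841), the kinetochore scaffold Knl1 (-1.18 ± 0.20, adjusted p = 0.00137), the spindle gene Ckap2l (-1.42 ± 0.19, adjusted p = 0.00022) and the condensin subunit Smc4 (-1.26 ± 0.17, adjusted p = 0.000238) were among those that fell. Cenpl averaged under the receptor level at every age (3.42 at P2, 2.80 at P7 and 2.13 at P14), and Ckap2l did so at P14 (3.08). Of the 26 further kinetochore and checkpoint genes, 21 averaged above that level at some age. Pttg1, securin, which guards cohesin until anaphase, was the gene that rose (0.71 ± 0.19, adjusted p = 0.0265; 4.21 ± 0.15 at P14 and 3.50 ± 0.31 at P2, SD, n = 3 each). Only 1 of its 3 P2 arrays read above the receptor level, so its P2 values may be partly background.

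At P14 against P7, 9 of the 96 fell (0.703% of all genes) and 0 rose. At P7 against P2 limma called 0 of 96 (0.144% of all genes fell), with 27 lower at an unadjusted p under 0.05 (6.61% of all genes). The DNA synthesis genes, which act before mitosis, had 14 of 29 falling and 0 rising at P14 against P2 (median -0.85; 4.4% of all genes fell), among them the primase subunit Prim1 (-1.60 ± 0.20, adjusted p = 0.000139) and thymidylate synthase Tyms (-0.97 ± 0.16, adjusted p = 0.00125). Of 12 cell cycle inhibitors and related genes measured, 2 fell at P14 against P2 (Rbl1 and Cdkn1a, with 4.4% of all genes falling) and 2 rose (Gadd45g and Gadd45b, with 6.63% of all genes rising). Cdkn1c, the inhibitor p57, was bright at every age (7.53 ± 0.38 at P2, 7.67 ± 0.26 at P7 and 7.36 ± 0.26 at P14) and was not called (-0.17 ± 0.22, adjusted p = 0.691 at P14 against P2).

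Markers of the cell types that may divide in young muscle had medians of both signs at P14 against P2. Over all genes 4.4% fell and 6.63% rose between these ages. Of 8 satellite cell and myoblast markers 3 fell at P14 against P2 (Myf5, Vcam1 and Cdh15), 0 rose, and Pax7, the defining stem cell factor, was not called (-0.39 ± 0.28, adjusted p = 0.445). The mean over these 8 was 5.44, 5.31 and 5.43 at P2, 5.27, 4.96 and 5.02 at P7, and 5.03, 5.02 and 5.04 at P14. The early myogenic factor Myf5 was called at P7 against P2 (-1.20 ± 0.22, adjusted p = 0.0329). Endothelial markers had a positive median (0.50, with 1 of 8 rising and 0 falling), and so did pericyte and smooth muscle markers (0.84, 4 of 7 rising). Fibro-adipogenic markers of connective tissue had a median of -0.26, with 1 of 7 falling (Pdgfra) and 0 rising. At an unadjusted p under 0.05, 3 of these 7 were lower (10.6% of all genes). Macrophage markers had a median of -0.13 with 0 of 8 called by limma (1 lower at an unadjusted p under 0.05, as were 10.6% of all genes).

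Neutrophil precursors and red cell precursors divide while they mature. Their marker lists had negative medians at P14 against P2. So did the cartilage and bone, satellite cell, fibro-adipogenic, Schwann cell, tendon, macrophage and lymphocyte lists. The endothelial, pericyte, epidermis and muscle fibre lists had positive ones. Over all genes 4.4% fell and 6.63% rose at P14 against P2, the shares to set beside the counts that follow. Of 8 neutrophil precursor markers 3 fell at P14 against P2 (Lcn2, Elane and Ltf), with a median of -1.02 and 5 above the receptor level at some age. Their mean was 4.44, 2.97 and 4.11 on P2 replicates 1, 2 and 3, 3.71, 3.31 and 3.48 at P7, and 2.91, 2.97 and 2.74 at P14. The log2 of their summed intensity was 6.09 to 7.71 for the P2 arrays, 6.40 to 6.84 for the P7 arrays and 5.79 to 5.99 for the P14 arrays. P2 replicate 2, low in mitosis genes, was also the lowest P2 array for these markers, as it was for erythroid markers (below), macrophage markers (5.10, 4.95 and 5.58 on P2 replicates 1, 2 and 3), lymphocyte markers (3.08, 2.89 and 3.29) and satellite cell and myoblast markers. The remaining marker lists differed. P2 replicate 1 was lowest for muscle fibre, endothelial, fibro-adipogenic, pericyte, Schwann cell and tendon markers, and P2 replicate 3 for epidermis and for cartilage and bone. Of the 4 erythroid markers measured (median -0.79) Epb42 fell and Tfrc, which muscle also makes, rose; their mean was 5.29, 4.24 and 5.63 at P2, 4.89, 4.78 and 4.95 at P7, and 4.82, 4.77 and 4.65 at P14, and the log2 of their sum 6.66 to 8.05, 7.38 to 7.52 and 8.47 to 8.56 at the 3 ages. The globins and Alas2 were not analysed here. Cartilage and bone markers also had a negative median (-1.11, with Ibsp and Acan falling among 8), but were highest on P2 replicate 2 (5.51, against 4.77 and 4.22 on replicates 1 and 3), with means of 3.76 to 4.66 at P7 and 3.48 to 3.59 at P14; the log2 of their sum was 7.51 to 9.13, 7.19 to 8.15 and 6.77 to 6.85 at the 3 ages. The part of any of these cell types in the fall of the mitosis genes was not tested.

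**Figure D4:**
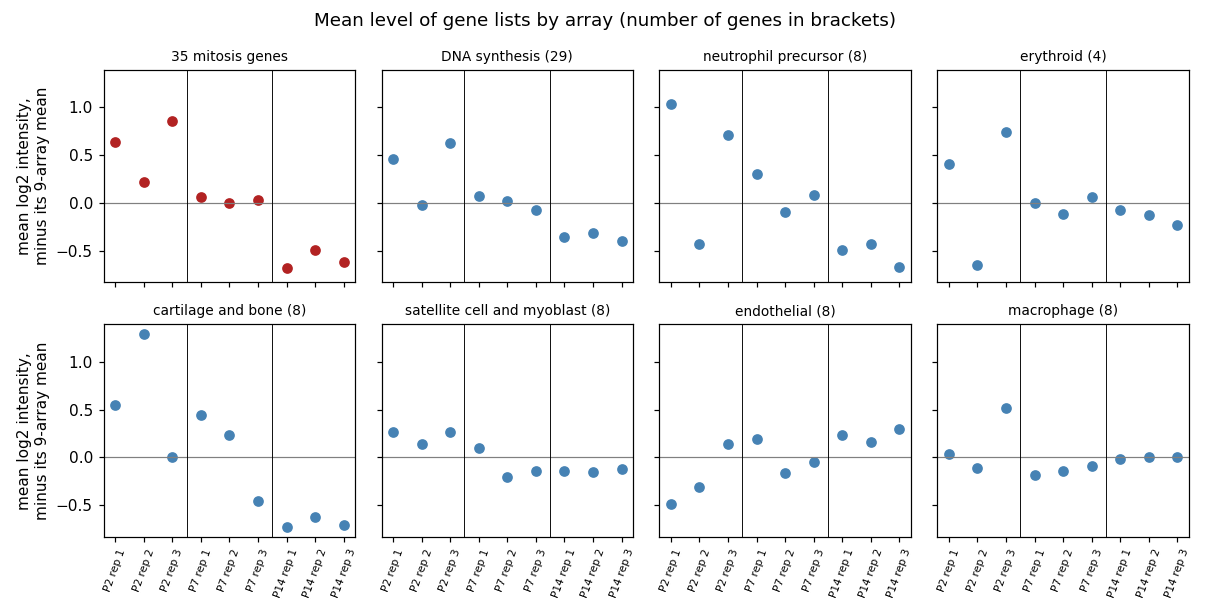
Mean log2 intensity of 8 gene lists on each array, less the list's own mean over the 9 arrays (points; P2, P7 and P14 divided by vertical lines). The 35 mitosis genes and the DNA synthesis genes are highest on P2 replicates 1 and 3 and lowest at P14, with P2 replicate 2 the lowest P2 array in both, as it is for neutrophil precursor, erythroid, macrophage and satellite cell markers, whereas cartilage and bone markers are highest on that array. For endothelial markers P2 replicate 1 is the lowest P2 array.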

How the data were processed

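Total RNA from hindlimb muscle was extracted with Trizol and labelled as biotinylated cRNA for Affymetrix arrays, per the labels' protocols. The authors deposited log2 intensities for 41345 probe sets on 9 arrays. Per the submitters' processing notes, RMA and Partek were used; no versions or settings are given there, and the base of the log is taken from RMA. RMA normalises arrays to each other, so a shift of all genes would not be seen, and dim genes are compressed. Probe sets with 1 symbol (23521) were named from the platform annotation, with symbols updated by Entrez number through RefSeq (GRCm38.p6), and the probe set with the highest mean was kept for each of 22180 genes.

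limma 3.58.1 (R 4.3.3) was fitted with a mean for each age, a shared variance and empirical Bayes moderation. The contrasts were P7 minus P2, P14 minus P7, P14 minus P2 and the difference of the intervals, with a moderated F-test. Tests were two-sided, with Benjamini-Hochberg adjustment over 22180 genes and a threshold of 0.05. ± is SE for log2 changes and SD for levels. The code was tested on simulated data. The p-values reflect how far the arrays of an age differ, which may be partly technical, and 3 arrays per age limit the precision. Brightness was not compared between genes. Members, lists and tests were chosen with earlier results of these data known. Members called in any comparison are given with all 9 values, and further lists by up to 3 called genes with the smallest adjusted p; Pttg1, Cdkn1c, Gadd45b and genes named to complete a count of 5 or fewer were chosen after their values were seen. Of 241 other list genes 224 (92.9%) were measured. Marker lists also covered fibro-adipogenic cells (median log2 change at P14 against P2 -0.26), lymphocytes (-0.06), epidermis (0.36), Schwann cells (-0.24), tendon (-0.14) and muscle fibres (0.44). Of the 8 muscle fibre markers 3 rose at P14 against P2 (Ckm, Tnnt3 and Tnni2) and 1 fell (Myh8), against 6.63% and 4.4% of all genes.

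Alternatives were centring on array medians, cyclic loess, testing only genes whose mean at their brightest age lay above the receptor level, the mean of a gene's probe sets, array weights, a trended robust prior, the replicate number as a block, and leaving out each array. The dimmest Cks2 probe set and the change per day were added after seeing the data.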

Additional observations from a re-analysis of the deposited data

How the results depend on the processing

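The count of members called at P14 against P2 (31 of 35) stayed at 30 to 33 under the settings other than leaving out arrays, and at 26 to 34 without single arrays. The medians at P14 against P2, P14 against P7 and P7 against P2 kept their sign throughout (-1.30 to -0.96, -0.64 to -0.55 and -0.70 to -0.38 without single arrays). The counts within an interval moved more. At P14 against P7, 6 members became 11 with cyclic loess, 11 with only genes above the receptor level and 13 with array weights, and 2 to 12 without single arrays. At P7 against P2, 1 member became 2 with centring on array medians, cyclic loess, a trended robust prior or genes above the receptor level only, where Kif11 joined Cks2, and 0 with the dimmest Cks2 probe set or the mean of all probe sets; it was 0 to 4 without single arrays. The F-test called 27 members, and 14 to 32 without single arrays. Over all genes, the 73 called at P7 against P2 became 173 with genes above the receptor level only, 159 with the trended prior and 11 to 206 without single arrays, and the 538 at P14 against P7 became 818 with that filter, 1221 with array weights and 214 to 794 without single arrays. The 2447 at P14 against P2 became 1373 to 2611 without single arrays. Testing fewer genes eases the adjustment; the cause of the other moves was not tested. No member of 35 changed direction where it was called. With the replicate block the counts were 31 (P14 against P2), 4 (P14 against P7), 1 (P7 against P2), 0 (difference of intervals) and 26 (F-test); same-numbered arrays had correlated deviations of only -0.03 to 0.06, against -0.08 to 0.11 for the other pairs, so the numbers were not taken to pair the samples. Signal near background limits the 9 members that averaged under the receptor level at P14. The filter on that level did not drop them: it used each gene's brightest age, and all 35 members passed it through P2.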
